A study of Homo sapiens with 6 samples.

Results

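The serpin family was taken as every gene whose single symbol on the array annotation began with SERPIN, leaving out 3 pseudogenes of 33 such symbols. This gave 30 genes of the 18404 tested, each measured by 1 probe set (a group of probes summarised as 1 value). They fell into clades by the letter in the symbol, with 10 genes in clade A, 11 in clade B, 2 each in F and I, and 1 each in C, D, E, G and H. SERPINB2, SERPINB6 and SERPINE3 were not analysed here.

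The 6 arrays measured messenger RNA of HaCaT, an established, spontaneously immortalised human keratinocyte line. All cells had received a lentivirus and were collected 72 hours later, 3 samples with a control shRNA vector (shControl) and 3 with a short hairpin RNA against TP63 (shTP63), the gene of the basal epithelial transcription factor p63. The labels do not state whether replicates came from separate cultures, so the p-values cover only sample-to-sample spread, which may be technical. TP63 was not analysed here. The knockdown itself therefore has no check here, and directions rest on the sample labels.

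Serpins share 1 fold with an exposed reactive loop. A protease that cuts the loop of an inhibitory serpin is trapped in a covalent complex, and both proteins are used up. Clade A and several single-gene clades are mostly secreted plasma proteins made by the liver, whereas clade B serpins lack a classical signal peptide and act mainly inside cells, many of them in stratified epithelia. Some members inhibit no protease and serve as hormone carriers, a collagen chaperone or a secreted factor.

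Promoter sequences are shown for the 4 serpins with the largest rises, for the collagen chaperone SERPINH1 and for SERPINB13, which had the largest fall in the family. They came from RefSeq (GRCh38.p14) and run from 250 bases before to 50 after a gene's start, written 5′ to 3′ on the gene's strand. RefSeq promoters were matched for 24 of the 30 members, with 34 windows in all. SERPINB3 (chr18:63661844-63662143, minus strand) and SERPINB4 (chr18:63644207-63644506, minus strand) are shown first because they are near-identical neighbouring genes that rose together, and capitals mark the bases at which the pair differs.
SERPINB3: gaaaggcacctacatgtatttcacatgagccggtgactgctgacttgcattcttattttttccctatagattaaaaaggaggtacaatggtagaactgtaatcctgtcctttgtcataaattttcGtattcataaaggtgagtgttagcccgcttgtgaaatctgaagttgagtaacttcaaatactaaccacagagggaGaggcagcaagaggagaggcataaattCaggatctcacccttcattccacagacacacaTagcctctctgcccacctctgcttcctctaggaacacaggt
SERPINB4: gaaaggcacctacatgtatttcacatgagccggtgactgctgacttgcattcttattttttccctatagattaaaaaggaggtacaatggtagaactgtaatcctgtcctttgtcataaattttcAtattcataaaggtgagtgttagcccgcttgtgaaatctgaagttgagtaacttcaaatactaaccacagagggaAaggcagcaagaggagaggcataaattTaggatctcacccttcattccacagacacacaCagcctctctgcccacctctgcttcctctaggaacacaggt
The pair of windows was identical at 296 of 300 aligned bases (98.7%), with 4 mismatches and no gap. Near-identical copies can also share probes on an array, so the separate values of SERPINB3 and SERPINB4 are uncertain.

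In the remaining windows capitals mark matches, on either strand, to the CCAAT box (CCAAT), the AP-1 site (TGANTCA), the STAT site (TTCNNNGAA), the TATA box (TATAAA), a heat-shock element core (GAANNTTC), the NF-kappa-B consensus and the decamer consensus of the p53 family. Matches of different motifs may overlap. The windows are those of SERPINA3 (chr14:94612141-94612440, plus strand), SERPINE2 (chr2:224031429-224031728, minus strand, 1 of its 2 starts), SERPINH1 (chr11:75562003-75562302, plus strand, 1 of its 2 starts) and SERPINB13 (chr18:63587093-63587392, plus strand).
SERPINA3: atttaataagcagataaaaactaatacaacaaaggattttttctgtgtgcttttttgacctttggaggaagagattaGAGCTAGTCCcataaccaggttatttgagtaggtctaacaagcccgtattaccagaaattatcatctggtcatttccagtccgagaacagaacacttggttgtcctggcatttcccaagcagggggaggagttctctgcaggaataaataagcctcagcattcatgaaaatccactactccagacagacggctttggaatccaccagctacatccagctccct
SERPINE2: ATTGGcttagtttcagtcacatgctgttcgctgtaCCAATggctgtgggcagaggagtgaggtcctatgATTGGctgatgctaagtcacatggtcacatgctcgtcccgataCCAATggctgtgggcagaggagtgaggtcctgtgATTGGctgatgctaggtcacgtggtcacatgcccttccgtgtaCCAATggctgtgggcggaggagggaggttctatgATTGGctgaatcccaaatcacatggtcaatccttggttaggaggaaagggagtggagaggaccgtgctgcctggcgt
SERPINH1: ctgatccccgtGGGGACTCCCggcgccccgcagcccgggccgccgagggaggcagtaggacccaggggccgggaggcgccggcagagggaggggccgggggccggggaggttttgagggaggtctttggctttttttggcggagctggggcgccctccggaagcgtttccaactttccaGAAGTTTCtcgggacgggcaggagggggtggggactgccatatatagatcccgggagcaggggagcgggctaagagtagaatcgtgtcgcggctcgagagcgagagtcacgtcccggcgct
SERPINB13: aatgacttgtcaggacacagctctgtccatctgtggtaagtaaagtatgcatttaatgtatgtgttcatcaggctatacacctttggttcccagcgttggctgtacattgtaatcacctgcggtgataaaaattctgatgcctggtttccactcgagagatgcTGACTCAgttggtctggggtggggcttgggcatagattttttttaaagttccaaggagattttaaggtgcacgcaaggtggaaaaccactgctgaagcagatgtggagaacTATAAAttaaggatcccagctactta
The SERPINE2 window held 7 CCAAT matches in a repeated stretch, while the window of its other start (chr2:224038591-224038890, minus strand) held none, nor a match to any other of these motifs. As many were found in 8 of 35097 windows of all genes (0.0228%), and no window of another serpin held more than 2. The CCAAT box was added to the search after this sequence was seen, and 34.6% of all windows held at least 1 match. The SERPINA3 window held 1 decamer of the p53 family, GAGCTAGTCC, a motif in 6.64% of all windows. The SERPINH1 window held a heat-shock core, GAAGTTTC, found in 6.77% of all windows, and an NF-kappa-B consensus, GGGGACTCCC, found in 11.3%. The window of its other start (chr11:75562223-75562522, plus strand) held neither, but 1 CCAAT match. SERPINB13 held an AP-1 match 87 bases before its start (7.71% of all windows) and a TATA match 24 bases after it (11.5%). The windows of SERPINB3 and SERPINB4 matched none of the 7 motifs. STAT matches, present in 7.66% of all windows, were found for 9 of the 24 members, 2 of them among the 8 members that rose and had a window. These are matches of letters only, and genes with several starts had more windows to match.

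Of the 30 serpins, 9 rose and 3 fell in shTP63 (limma adjusted p under 0.05 over all genes), while 18 did not pass. The 12 called members are 40% of the family, against 41.5% of all genes called in this comparison. Rises made up 16.4% of all genes tested and falls 25.1%. Over all 30 members the share called was thus near that of all genes. The family's median difference was 0.05 on the log2 scale against -0.01 for all genes. After centring each array on its median, which moved the median of all genes to -0.12, 8 serpins rose and 6 fell and the family median became -0.06. In the same fit falls made up 81.7% of all calls, against 60.5% on the deposited scale. Among the serpins, 4 (13.3%) were called with a difference of at least 0.5 log2 units, against 6.99% of all genes, and the same 4 exceeded 2-fold, against 0.679% of all genes. The groups did not overlap in 14 serpins, the 12 called ones and SERPINA9 and SERPINB5, against 51.4% of all genes.

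**Figure D1:**
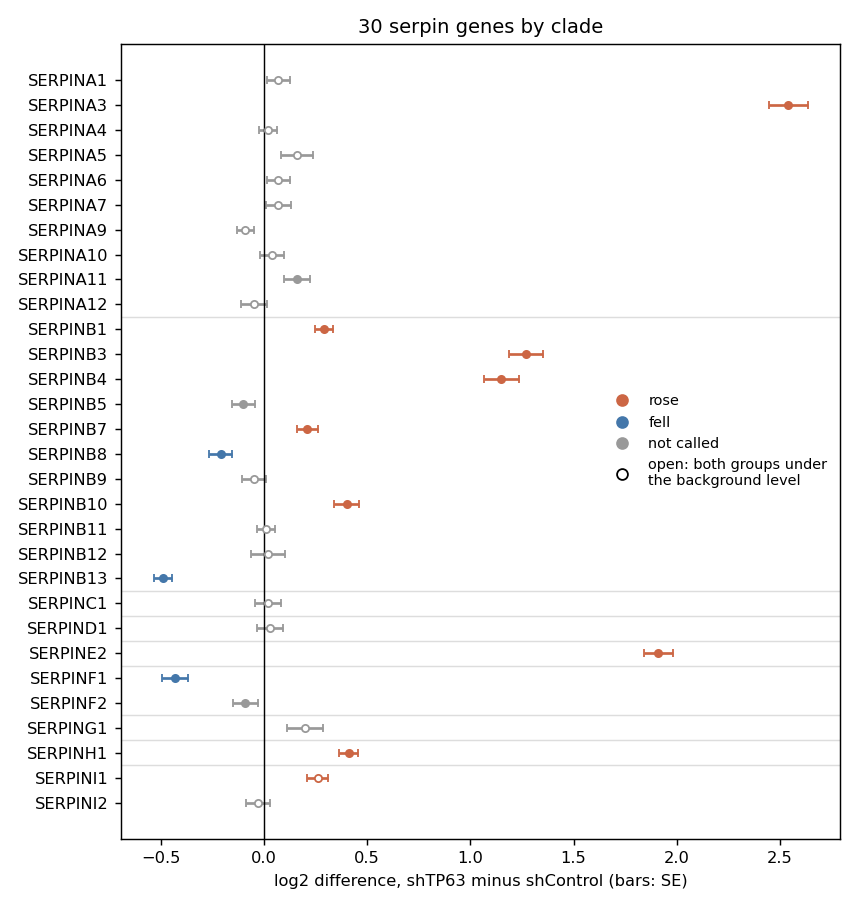
Log2 difference, shTP63 minus shControl, of each of the 30 serpin genes, grouped by clade, with bars of 1 SE from limma. The horizontal axis is in log2 units, colours give the call at adjusted p under 0.05, and open circles mark genes whose group means both lay under 6.78. SERPINA3 at 2.54, SERPINE2 at 1.91, SERPINB3 at 1.27 and SERPINB4 at 1.15 stand to the right of all others.

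The arrays give no counts, so their number limits the precision. Background was set at 6.78 on the log2 scale, the level under which 95% of 337 olfactory receptor genes lay, since a change in a dim probe set is compressed. In 14 serpins at least 1 group mean lay above it, and 11 of these (78.6%) were called. In the other 16 both means lay under it, and 1 of these, SERPINI1, was called (6.25%). For comparison, 52.7% of all genes above this level in a group were called, and 11.4% of those above it in neither. The differences between these shares were not tested. A gene counted as above the level if either mean passed it, as SERPINA3 did only in shTP63 and SERPINF1 only in shControl. Of 15 keratinocyte markers, 11 were measured, and each lay above the background level in at least 1 group (2 rose and 5 fell, mean level 12.11 to 12.14 in shControl and 11.97 to 11.98 in shTP63), whereas this held for 2 of 14 measured hepatocyte markers (APOA1 and APOA2, with ALB, TTR and APOB below it) and for 1 of 13 leucocyte markers (CSF1R, with PTPRC below it). The mean level over the hepatocyte list was 5.53 to 5.58 in shControl and 5.49 to 5.56 in shTP63, and over the leucocyte list 5.55 to 5.64 and 5.52 to 5.56. No hepatocyte or leucocyte marker rose, while 2 hepatocyte markers (TTR and CYP3A4) and 1 leucocyte marker (FCGR3A) fell. Of other marker lists, 4 of 10 endothelial, 3 of 6 melanocyte and 5 of 7 neuron markers lay above the background level in a group. A value above this level therefore does not by itself show that a gene is expressed.

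Among secreted inhibitors, SERPINA3 changed most. It encodes alpha-1-antichymotrypsin, an acute-phase inhibitor of cathepsin G and mast cell chymase. Its log2 intensity was 6.46, 6.44 and 6.58 in the shControl arrays and 9.26, 8.86 and 8.97 in the shTP63 arrays. All 3 control values lay under the background level and all 3 shTP63 values well above it, with no overlap. The mean went from 6.49 ± 0.073 to 9.03 ± 0.209 (SD, n = 3), a difference of 2.54 ± 0.095 (SE, limma adjusted p = 5.42e-07). Because the control mean was under the background level, the rise is given as at least 4.76-fold, with the background level in place of that mean.

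SERPINE2, protease nexin-1, is a cell-surface and matrix inhibitor of thrombin, urokinase and plasmin. The control arrays read 7.20, 7.11 and 7.16 and the shTP63 arrays 9.21, 8.92 and 9.05 (log2 intensity). Every shTP63 value was above every control value. Both groups lay above the background level, though the control mean of 7.15 was not far above it. The rise was 1.91 ± 0.070 (SE, limma adjusted p = 5.18e-07), or 3.75-fold, the 12th largest of all genes. SERPINI1, neuroserpin, which inhibits tissue plasminogen activator, read 6.12, 6.19 and 6.23 in shControl and 6.38, 6.44 and 6.50 in shTP63. Its groups did not overlap and it rose by 0.26 ± 0.050 (SE, limma adjusted p = 0.00275), but all 6 values lay under the background level, so the size is uncertain.

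The other secreted inhibitors did not pass. SERPING1, the C1 inhibitor of the complement and contact pathways, read 6.55, 6.31 and 6.36 in shControl and 6.44, 6.75 and 6.63 in shTP63. The groups overlapped, both means were under the background level, and the difference was 0.20 ± 0.087 (SE, limma adjusted p = 0.0995). It passed without shControl replicate 1 (0.27, adjusted p = 0.0384) and without shTP63 replicate 1 (0.28, adjusted p = 0.0247). SERPINA5, the protein C inhibitor, differed by 0.16 ± 0.076 (SE, limma adjusted p = 0.131) and passed without shTP63 replicate 3 (0.23, adjusted p = 0.0332). SERPINF2, the plasmin inhibitor alpha-2-antiplasmin, differed by -0.09 ± 0.062 (SE, limma adjusted p = 0.281) and was called lower after centring (-0.20, adjusted p = 0.0222) and after another quantile normalization (-0.20, adjusted p = 0.0225). SERPINA1 (elastase inhibitor), SERPINA4 (kallistatin), SERPINA10, SERPINC1 (antithrombin), SERPIND1 (heparin cofactor II) and SERPINI2 lay under the background level in both groups, with differences from -0.03 for SERPINI2 to 0.07 for SERPINA1.

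**Figure D2:**
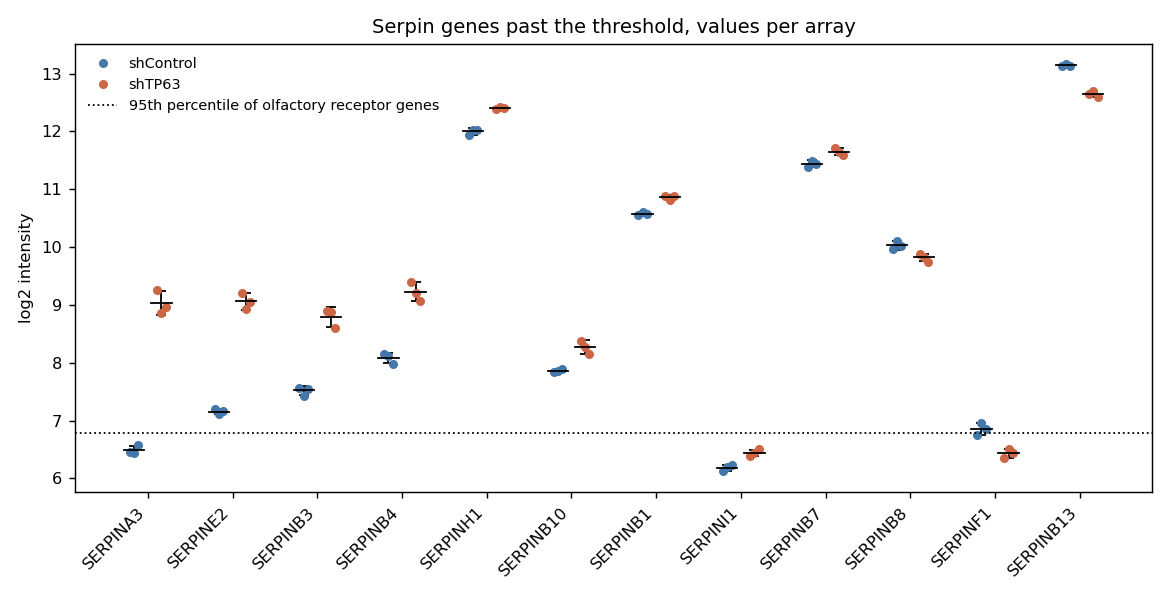
Log2 intensity on each array of the 12 serpins past the threshold, in order of their difference, with shControl in blue and shTP63 in red. Horizontal strokes are group means with bars of 1 SD (n = 3), and the dotted line is the background level of 6.78. The 3 values of one group never overlap those of the other, and SERPINI1 lies under the line in both groups.

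Serpins that inhibit no protease moved in both directions. SERPINH1, known as HSP47, is the collagen-specific chaperone of the endoplasmic reticulum. It read 11.93, 12.02 and 12.03 in shControl and 12.39, 12.42 and 12.41 in shTP63, with no overlap, and rose by 0.41 ± 0.045 (SE, limma adjusted p = 0.000115), or 1.33-fold. SERPINF1, pigment epithelium-derived factor, a secreted inhibitor of blood vessel growth, read 6.75, 6.96 and 6.86 in shControl and 6.35, 6.50 and 6.43 in shTP63. All shTP63 values were lower, and the level fell by 0.43 log2 units (SE 0.064, limma adjusted p = 0.000604), to a level under the background, so the size of the fall is uncertain. The hormone carriers SERPINA6, corticosteroid-binding globulin, and SERPINA7, thyroxine-binding globulin, lay under the background level in both groups and each differed by 0.07.

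The clade A genes of chromosome 14 form 1 cluster, in the order SERPINA10, SERPINA6, SERPINA1, SERPINA11, SERPINA9, SERPINA12, SERPINA4, SERPINA5 and SERPINA3 (RefSeq annotation). Only SERPINA3, at the end of this row, passed, and the other 8 differed by -0.09 to 0.16 with array values from 5.48 to 7.42. SERPINA11 was the other member of the cluster above the background level, at 7.33, 7.11 and 7.14 in shControl and 7.34, 7.31 and 7.42 in shTP63. Its groups overlapped, with a difference of 0.16 ± 0.064 (SE, limma adjusted p = 0.0765). It passed without shControl replicate 1 (0.23, adjusted p = 0.0113) and with the dimmest 40% of probe sets left out (0.16, adjusted p = 0.0416). SERPINA9, described from germinal centre B cells, differed by -0.09 ± 0.041 (SE, limma adjusted p = 0.124) under the background level, and was called lower under 3 scalings (-0.19 to -0.14). SERPINA12, vaspin, an inhibitor of the skin kallikrein KLK7, lay under the background level and differed by -0.05.

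Clade B held 7 of the 12 called genes, 5 of which rose and 2 fell, out of 11 members (63.6% called, against 41.5% of all genes). Of its 8 members above background in a group 7 were called, against 52.7% of all such genes. SERPINB3, squamous cell carcinoma antigen 1, inhibits lysosomal cysteine cathepsins. It read 7.57, 7.43 and 7.55 in shControl and 8.89, 8.88 and 8.60 in shTP63, well apart, and rose by 1.27 ± 0.081 (SE, limma adjusted p = 7.32e-06), or 2.42-fold. SERPINB4, squamous cell carcinoma antigen 2, inhibits cathepsin G and chymase. It read 8.15, 8.11 and 7.97 in shControl and 9.40, 9.21 and 9.07 in shTP63, also with no overlap, and rose by 1.15 ± 0.085 (SE, limma adjusted p = 1.44e-05), or 2.22-fold. In both genes the shTP63 arrays were more spread (SD 0.168 and 0.169) than the control arrays (0.073 and 0.093). The changes of the pair differed by 0.12 (exact two-sided permutation test over the arrays, p = 0.3), a comparison in which 3 arrays against 3 cannot give a p below 0.10 and so cannot reach the threshold of 0.05 at any difference.

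SERPINB13, headpin, an inhibitor of cathepsins K and L in differentiating squamous epithelium, had the largest fall of the family. It read 13.13, 13.16 and 13.13 in shControl and 12.65, 12.70 and 12.59 in shTP63, so every shTP63 value was lower. Its level fell by 0.49 log2 units (SE 0.045, limma adjusted p = 4.3e-05), or 1.41-fold, the 751st largest fall of 18404 genes. SERPINB8, a cytosolic inhibitor that can block furin, read 9.96, 10.11 and 10.02 in shControl and 9.88, 9.82 and 9.75 in shTP63. Its groups did not overlap and it fell by 0.21 (SE 0.056, limma adjusted p = 0.0139). Cyclic loess ended this call (-0.14, adjusted p = 0.0605), as did quantile normalization restricted to single-gene probe sets (-0.14, adjusted p = 0.0676) and leaving out shControl replicate 2 (-0.17, adjusted p = 0.0568).

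Smaller rises were seen in 3 further clade B genes. SERPINB10, bomapin, described mainly from blood-forming cells, read 7.84, 7.86 and 7.89 in shControl and 8.38, 8.27 and 8.15 in shTP63 and rose by 0.40 ± 0.060 (SE, limma adjusted p = 0.00064). SERPINB1, which inhibits the neutrophil proteases elastase, cathepsin G and proteinase 3, read 10.55, 10.60 and 10.57 in shControl and 10.89, 10.82 and 10.88 in shTP63 and rose by 0.29 ± 0.043 (SE, limma adjusted p = 0.000588). SERPINB7, megsin, whose loss causes a palmoplantar keratosis, read 11.38, 11.49 and 11.43 in shControl and 11.71, 11.64 and 11.59 in shTP63. None of these groups overlapped, and SERPINB7 rose by 0.21 ± 0.051 (SE, limma adjusted p = 0.00872), a call lost after centring on the array median (0.11, adjusted p = 0.142).

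SERPINB5, maspin, a non-inhibitory serpin of epithelial cells described as a p63-responsive gene, did not pass. It read 12.47, 12.55 and 12.46 in shControl and 12.46, 12.41 and 12.30 in shTP63. The lowest control and the highest shTP63 array lay side by side, and the difference was -0.10 ± 0.055 (SE, limma adjusted p = 0.164). After centring on the array median it was called lower (-0.21, adjusted p = 0.0112). SERPINB9, the granzyme B inhibitor, SERPINB11 and SERPINB12 lay under the background level in both groups and differed by -0.05, 0.01 and 0.02.

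In the chromosome 18 cluster the measured genes follow each other as SERPINB5, SERPINB12, SERPINB13, SERPINB4, SERPINB3, SERPINB11, SERPINB7, SERPINB10 and SERPINB8. Of these 9 genes, 4 rose, 2 fell and 3 did not pass (66.7% called, against 41.5% of all genes). The fall of SERPINB13 (-0.49) and the rises of SERPINB4 (1.15) and SERPINB3 (1.27) belonged to neighbours in this row. Of the pair on chromosome 6, SERPINB1 rose and SERPINB9 did not pass.

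**Figure D3:**
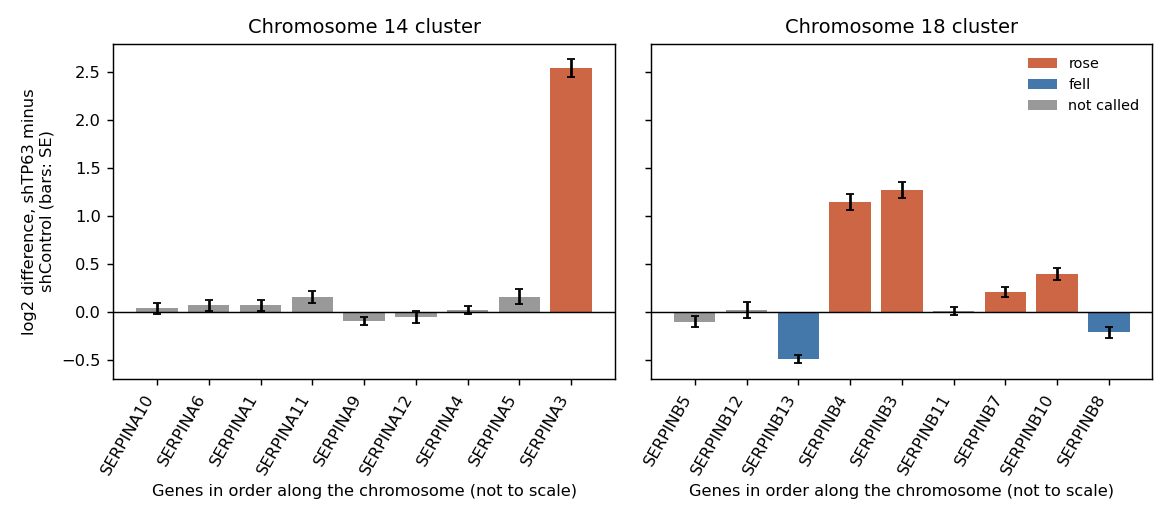
Log2 difference, shTP63 minus shControl, of the measured serpins of the chromosome 14 and chromosome 18 clusters, with bars of 1 SE, in gene order and not to scale. On chromosome 14 SERPINA3 (2.54) is the 1 called gene, while on chromosome 18 the called genes stand in 2 runs of 3, SERPINB13, SERPINB4 and SERPINB3, and SERPINB7, SERPINB10 and SERPINB8.

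Proteases that serpins inhibit, and genes that act beside them, were read from 8 lists, 134 of whose 140 genes were measured. The lists were chosen with earlier results of these data known, so their shares called are descriptive only. The plasminogen activation list covers SERPINE2 and SERPINI1 targets, their receptors and related clotting genes, and it also holds the metalloproteinase MMP7. Of its 18 measured members 9 rose and 3 fell (66.7% called, against 41.5% of all genes), and the median difference was 0.21. Of its 17 members above background in a group 11 were called, against 52.7% of all such genes. The urokinase receptor PLAUR rose by 1.43 ± 0.059 (SE, limma adjusted p = 8.39e-07), the matrix inhibitor TFPI2 by 1.52 ± 0.041 (limma adjusted p = 9.1e-08) and the metalloproteinase MMP7 by 2.95 ± 0.111 (limma adjusted p = 5.42e-07). Urokinase itself, PLAU, rose by 0.77 ± 0.043 and tissue plasminogen activator, PLAT, by 0.99 ± 0.043, both named after their values were seen. The members that fell, also named after their values were seen, were the plasminogen receptor PLGRKT (-0.70), plasminogen itself, PLG (-0.17, under the background level in both groups), and thrombomodulin, THBD (-0.26). PLAU and PLAT encode targets of SERPINE2 and moved in the same direction as it. After centring 9 members of this list rose and 6 fell, with a median of 0.10.

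Of 11 cysteine cathepsins, lysosomal proteases only some of which SERPINB3 and SERPINB13 can inhibit, 6 rose and 0 fell, and their median difference was 0.23. The share called was 54.5%, against 41.5% of all genes. Of the 9 cathepsins above background in a group 6 were called, against 52.7% of all such genes, and these differences were not tested. CTSV rose by 0.82 ± 0.041 (SE), CTSZ by 0.62 ± 0.045 and CTSL by 0.53 ± 0.040 (limma adjusted p from 2.14e-06 to 1.83e-05). After centring 5 rose and 2 fell, with a median of 0.12. Of 15 kallikrein-related peptidases, serine proteases that shed the outer skin layers, 3 rose and 5 fell (53.3% called, against 41.5% of all genes). Of the 11 above background in a group 8 were called, against 52.7% of all such genes, also not tested. KLK6 was higher by 0.85 ± 0.060, while KLK13 (-1.38 ± 0.052) and KLK11 (-0.55 ± 0.073) were lower. After centring 2 kallikrein-related peptidases were called higher and 7 lower. Of 14 membrane and trypsin-like serine proteases 6 rose and 0 fell, a share called of 42.9%, near the 41.5% of all genes. Of the 10 above background in a group 6 were called, against 52.7% of all such genes. After centring 5 members of this list rose and 3 fell. Matriptase, ST14, rose by 0.78 ± 0.052, FURIN, a target of SERPINB8, by 0.66 ± 0.052 and PRSS23 by 0.50 ± 0.048.

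The neutrophil, mast cell and lymphocyte proteases that SERPINA3, SERPINB1, SERPINB4 and SERPINB9 are known to inhibit were mostly not called. Of 12 measured leucocyte serine proteases 1 rose and 0 fell, with differences from -0.09 to 0.15. The share called was 8.33%, against 41.5% of all genes. Of the 7 above background in a group 1 was called, against 52.7% of all such genes, and these differences were not tested. The rise was that of PRTN3 (0.15 ± 0.052 SE, limma adjusted p = 0.041), a call lost in 7 of 15 alternatives. After centring, and after another quantile normalization, 0 members rose and 2 fell. Among targets named outside the naming rule, ELANE differed by 0.00, and CTSG (-0.07) and CMA1 (0.03) lay under the background level. Of 14 coagulation, contact and complement proteases 2 rose and 1 fell (21.4% called, against 41.5% of all genes). Of the 7 above background in a group 3 were called, against 52.7% of all such genes. C1S (0.89 ± 0.051) and C1R (0.44 ± 0.048), the complement proteases that SERPING1 inhibits, were higher. PROC, the target of SERPINA5, was lower (-0.36 ± 0.055). After centring 2 members of this list rose and 4 fell.

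Inhibitors of other families were also divided. Of 31 measured epithelial protease inhibitors, 11 rose and 5 fell, 51.6% called against 40% of the serpins and 41.5% of all genes, a difference that was not tested. The elastase inhibitor PI3 (elafin) rose by 1.59 ± 0.095 (SE) and TIMP2 by 0.62 ± 0.041, whereas CSTA, a cornified-envelope inhibitor of cysteine cathepsins, was lower (-1.03 ± 0.046), with limma adjusted p from 1.14e-06 to 9.39e-06. The median difference of these inhibitors was 0.05. Centring turned it to -0.06, with 10 members called higher and 8 lower. Of 19 collagen folding enzymes and chaperones, the genes beside which SERPINH1 acts, 15 rose and 0 fell, and their median difference was 0.35. The share called was 78.9%, against 41.5% of all genes. Of the 18 above background in a group 15 were called, against 52.7% of all such genes. The prolyl hydroxylase subunits P4HA1 and P4HA2 rose by 0.61 ± 0.047 each and the chaperone HSPA5 by 0.56 ± 0.045 (limma adjusted p from 1.81e-05 to 2.16e-05). In this list 15 members also rose under each of the 4 other scalings, with medians from 0.25 to 0.43, and 1 fell after another quantile normalization. Fibroblast markers, cells rich in SERPINH1, were above the background level in 5 of 10 genes. Of these 10 markers 3 rose and 1 fell (40% called, against 41.5% of all genes). Their mean level was 6.68 to 6.77 in shControl and 6.82 to 6.88 in shTP63. All samples were labelled as the keratinocyte line HaCaT, and whether any other cells were present was not tested.

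**Figure D4:**
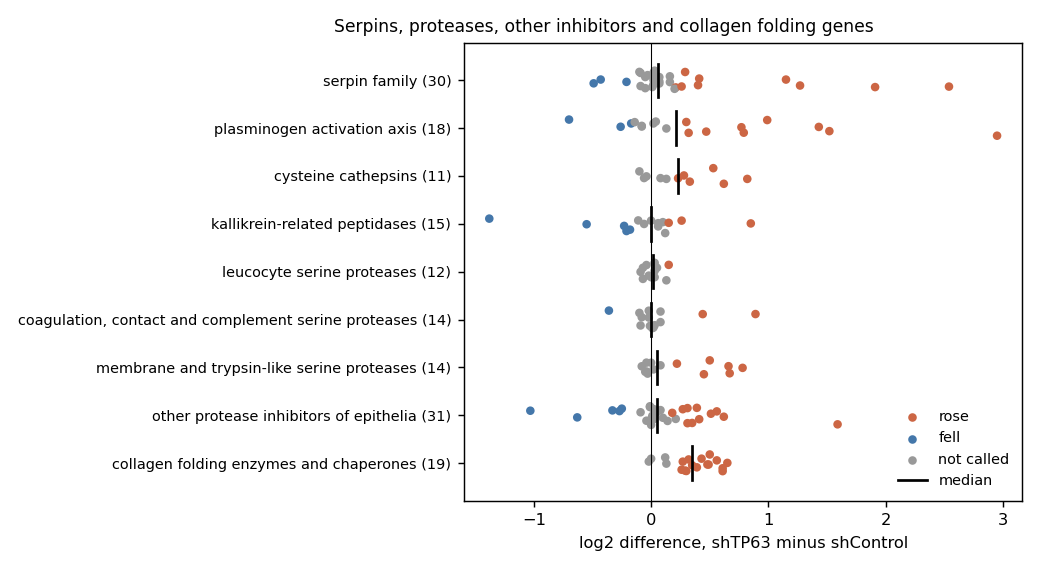
Log2 difference, shTP63 minus shControl, of each measured gene of the serpin family and of the 8 lists of proteases, other inhibitors and collagen folding genes, with the number of genes in brackets. Each point is 1 gene coloured by its call, vertical spread within a row has no meaning, and black strokes are medians. These were lowest, at 0.00, for kallikrein-related peptidases and for coagulation, contact and complement proteases, and highest, at 0.35, for collagen folding genes.

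Over 14 or 15 alternatives of normalization, filter, probe set rule, variance model and samples, 10 of the 12 called serpins kept their call wherever they could be tested, and SERPINB7 and SERPINB8 did not. SERPINA3 ranged from 2.35 to 2.63, SERPINE2 from 1.79 to 1.97, SERPINB3 from 1.17 to 1.37 and SERPINB4 from 1.04 to 1.23. SERPINB13 ranged from -0.60 to -0.43. None of the 18 serpins examined this way changed sign.

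**Figure D5:**
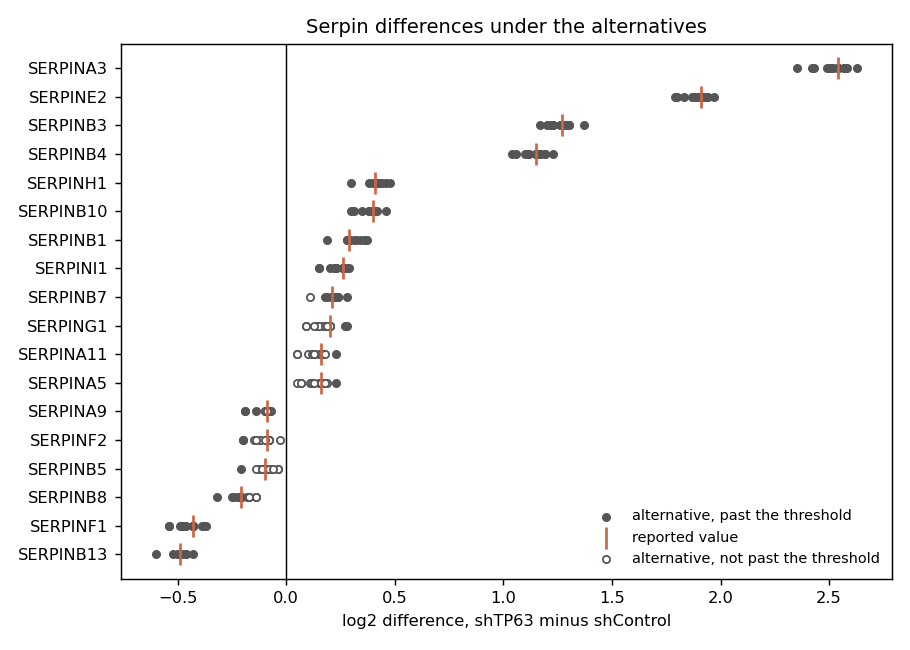
Log2 difference, shTP63 minus shControl, of 18 serpins under each alternative (filled circles past adjusted p of 0.05, open circles not) and as reported (vertical stroke). The 4 largest rises keep clear of all other serpins, and the open circles sit with differences of small size.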

How the data were processed

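The authors deposited probe set intensity values on a linear scale, made with RMA in R 2.15.1 per the submitters' processing notes. RMA corrects background, normalizes arrays to each other and summarises probes. The log2 of these values was taken here. The array medians were 173 to 177 in shControl and 187 to 190 in shTP63 (7.44 to 7.47 and 7.54 to 7.57 in log2), a shift that follows the groups and that centring removes. Arrays of a group correlated at r of 0.996 to 0.998 across probe sets. Of 32321 probe sets, 19158 had 1 gene, 1388 several and 11775 were unlisted in the platform annotation. The highest-mean probe set stood for each of 18404 genes. Groups came from the titles. limma 3.58.1 in R 4.3.3 (lmFit, eBayes, two-sided, no covariate) was fitted to all genes with Benjamini-Hochberg adjustment and a threshold of 0.05. The members, lists and naming rule (in each list the up to 3 called genes with the smallest adjusted p, and any serpin) were chosen with earlier results of these data known. Lists of endothelial, melanocyte and neuron markers gave 2, 1 and 1 rises and 1, 0 and 1 falls. In 10 simulations over 18404 genes, 200 genes were changed each time and no shift between arrays was added. The fit recovered 88.2% of differences of 0.5 and 98.9% of differences of 1, and 4.38% of its calls were false. In the data far more genes were called and the array medians shifted with the groups, so these shares do not carry over to the real calls. The median within-group SD was 0.065.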

Additional observations from a re-analysis of the deposited data

How the results depend on the processing

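The 9 rises and 3 falls among the serpins were also the counts with the replicate number as a block, after averaging probe sets, with an offset of 16 before log2 and with a trended robust prior. The deviations of same-numbered arrays correlated at -0.15, -0.04 and 0.13, and those of differently numbered arrays at -0.14 to 0.16. This gave no sign that the numbers paired the samples, though it cannot settle how they were handled. The block was not used in the main fit. After another quantile normalization the serpins had 5 falls and the 8 lists together 23. With each array centred on its median the serpins had 6 falls, the lists 32, and all genes 1782 rises and 7932 falls. The cause was not tested. Leaving out 1 array gave 9 to 11 rises and 2 to 3 falls among the serpins. At a threshold of 0.01 there were 9 rises and 2 falls. With the dimmest 40% of probe sets left out 13 serpins remained in the fit. Signal over background limits what 16 dim serpins can show.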

Other observations

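The 3 serpin pseudogenes left out of the family did not pass either. SERPINA13P differed by 0.13 ± 0.075 (SE, limma adjusted p = 0.205), SERPINA2, annotated by RefSeq as a transcribed pseudogene, by 0.11 ± 0.104 (adjusted p = 0.452) and SERPINB9P1 by 0.10 ± 0.070 (adjusted p = 0.285). In each of them the arrays of both groups overlapped.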
